A study of Mus musculus with 14 samples.

Results

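Necdin (Ndn), Magel2 and 5 further members of the MAGE (melanoma antigen) gene family were followed in mice lacking the imprinting center of the Prader-Willi domain, labelled PWS-IC del, and in wild-type littermates. The genes are Ndn, Magel2, Maged1, Maged2, Magee1, Mageh1 and Nsmce3, and every probe set that the array's annotation gives to 1 of these symbols was taken. That gave 15 probe sets of the 45037 tested and 7 genes of the 18193 with a symbol: 8 probe sets for Ndn, 2 for Maged2 and 1 for each of the other genes. RNA came from what the titles call brain tissue samples and from vastus lateralis, which belongs to the quadriceps. Each tissue had 4 wild-type and 3 PWS-IC del arrays. All the mice were F1 hybrids of FVB and B6, and the littermate controls were of matched age. The labels give neither the age, nor the sex, nor the parent that passed on the deletion, and brain and muscle samples mix many cell types. In such bulk samples, fewer cells of a type and less RNA per cell cannot be told apart.

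MAGE proteins share a conserved homology domain, and many of them bind a RING-type ubiquitin ligase and direct it to its targets. Ndn and Magel2 are intronless genes of the Prader-Willi domain, where only the copy inherited from the father is read in most tissues, and an imprinting center upstream keeps that paternal copy open. Necdin is abundant in neurons that have left the cell cycle, where it binds E2F1 and p53 and restrains growth, and Magel2 works in a ubiquitin ligase complex on endosomes and is studied for its role in the hypothalamus. The MAGE relatives outside the domain are called paralogs here. In the RefSeq order of chromosome 7 (assembly GRCm38.p6), Ndn and Magel2 lie side by side, with 0 protein-coding genes between them, followed by Mkrn3 and Peg12. Nsmce3 lies on the same chromosome but beyond the domain, with 13 protein-coding genes between it and Peg12. Maged1, Maged2, Magee1 and Mageh1 lie on the X chromosome.

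The promoters of the neighbouring pair are shown because these are the 2 members inside the imprinted domain. Each run covers 250 bases before to 50 bases after the RefSeq start, in GRCm38.p6, on the plus strand and 5′ to 3′. CpG pairs, the sites of DNA methylation, are in capitals. The Ndn window is chr7:62348027-62348326 and the Magel2 window is chr7:62376729-62377028.
Ndn: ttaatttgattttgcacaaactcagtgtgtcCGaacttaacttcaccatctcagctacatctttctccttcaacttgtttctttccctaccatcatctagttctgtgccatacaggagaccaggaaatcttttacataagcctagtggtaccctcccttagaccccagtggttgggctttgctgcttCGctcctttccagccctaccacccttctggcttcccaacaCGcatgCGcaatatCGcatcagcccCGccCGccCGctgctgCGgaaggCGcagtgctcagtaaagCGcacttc
Magel2: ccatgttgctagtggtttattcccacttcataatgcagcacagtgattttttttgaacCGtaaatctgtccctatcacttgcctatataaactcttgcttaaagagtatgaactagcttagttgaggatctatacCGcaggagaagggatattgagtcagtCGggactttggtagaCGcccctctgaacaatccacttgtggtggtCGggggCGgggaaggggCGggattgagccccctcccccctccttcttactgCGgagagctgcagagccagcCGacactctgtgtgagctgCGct
The Ndn window held 11 CpG pairs and the Magel2 window 10, against a median of 7 over the 32851 promoters in the RefSeq table. In the Ndn window 9 of the 11 stand in the last 100 bases, around the start of the transcript, and in the Magel2 window 6 of the 10 do. Both windows held the GC box GGGCGG 2 times, a motif found in 35.7% of all promoters when both strands are read. The letters CATGCGC, the core of the NRF1 motif, occurred once for Ndn and not for Magel2 (3.91% of all promoters hold them). The TATA box letters TATAAA occurred once for Magel2 and not for Ndn (13.6% of all promoters). These matches describe the letters only, since neither methylation nor binding was measured.

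Values are given as log2(intensity + 16), so a step of 1 doubles the signal of a bright probe set, and differences of dim probe sets come out too small. A difference is the PWS-IC del mean less the wild-type mean, tested with limma over all 45037 probe sets, and a probe set was called at a Benjamini-Hochberg adjusted p under 0.05. The 8 neuron markers averaged 12.69 to 12.83 in every brain array and the 7 muscle fibre markers 13.62 to 13.92 in every muscle array, so both tissues carried their labelled markers. Within a tissue the arrays correlated at 0.952 to 0.992 in brain and at 0.981 to 0.991 in muscle. On the first principal component of the brain arrays, wild-type brain 1 and 2 lay far from the rest. Wild-type brain 1 and 3 held more muscle fibre RNA, with marker averages of 9.61 and 9.02 against 6.30 to 6.79 in the other brain arrays. Wild-type muscle 2 and 4 held more neuron RNA, with averages of 7.56 and 6.69 against 5.41 to 6.35 in the other muscle arrays. Where stated below, values without these arrays are given too.

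In PWS-IC del brain, 7 of the 8 Ndn probe sets fell, to between 3.50% and 5.62% of the wild-type mean intensity. Probe set 1415923_at read 12.67, 12.52, 13.27 and 13.05 in the 4 wild-type brains and 8.04, 8.95 and 8.59 in the 3 PWS-IC del brains. Every mutant array lay far below every wild-type array. The group means were 12.88 ± 0.34 (SD, n = 4) and 8.53 ± 0.46 (SD, n = 3), and the difference was -4.35 ± 0.25 (SE, limma adjusted p = 0.00031). In linear terms the mean intensity was 7678 in wild-type and 365 in PWS-IC del brain.

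The other bright Ndn probe sets gave the same direction and a similar size. Probe set 1435382_at read 12.53, 12.43, 13.10 and 12.89 in wild-type brain and 7.98, 9.18 and 8.59 in PWS-IC del brain. Probe set 1435383_x_at read 12.61, 12.52, 13.22 and 13.01 against 7.92, 9.10 and 8.74. Probe set 1455792_x_at read 12.34, 12.59, 13.13 and 12.90 against 7.07, 8.49 and 8.16, the widest gap of the 8. For these 3 the wild-type and mutant arrays were again fully apart. Probe set 1437853_x_at read 12.04, 12.26, 12.79 and 12.66 in wild-type brain and 7.70, 8.71 and 8.52 in PWS-IC del brain. The pair of lower-reading probe sets, 1438939_x_at and 1438978_x_at, lay at 9.71 to 10.41 and 9.62 to 10.41 in wild-type brain and at 5.10 to 6.13 and 5.20 to 6.20 in PWS-IC del brain. Over the 7 called probe sets the differences ran from -4.83 to -4.13, with SE of 0.25 to 0.33 and limma adjusted p of 0.00031 to 0.000754, which is 17.8-fold to 28.5-fold less intensity. The suffix _x_at marks probe sets with probes that may also match other transcripts, and 5 of the 8 carry it.

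**Figure D1:**
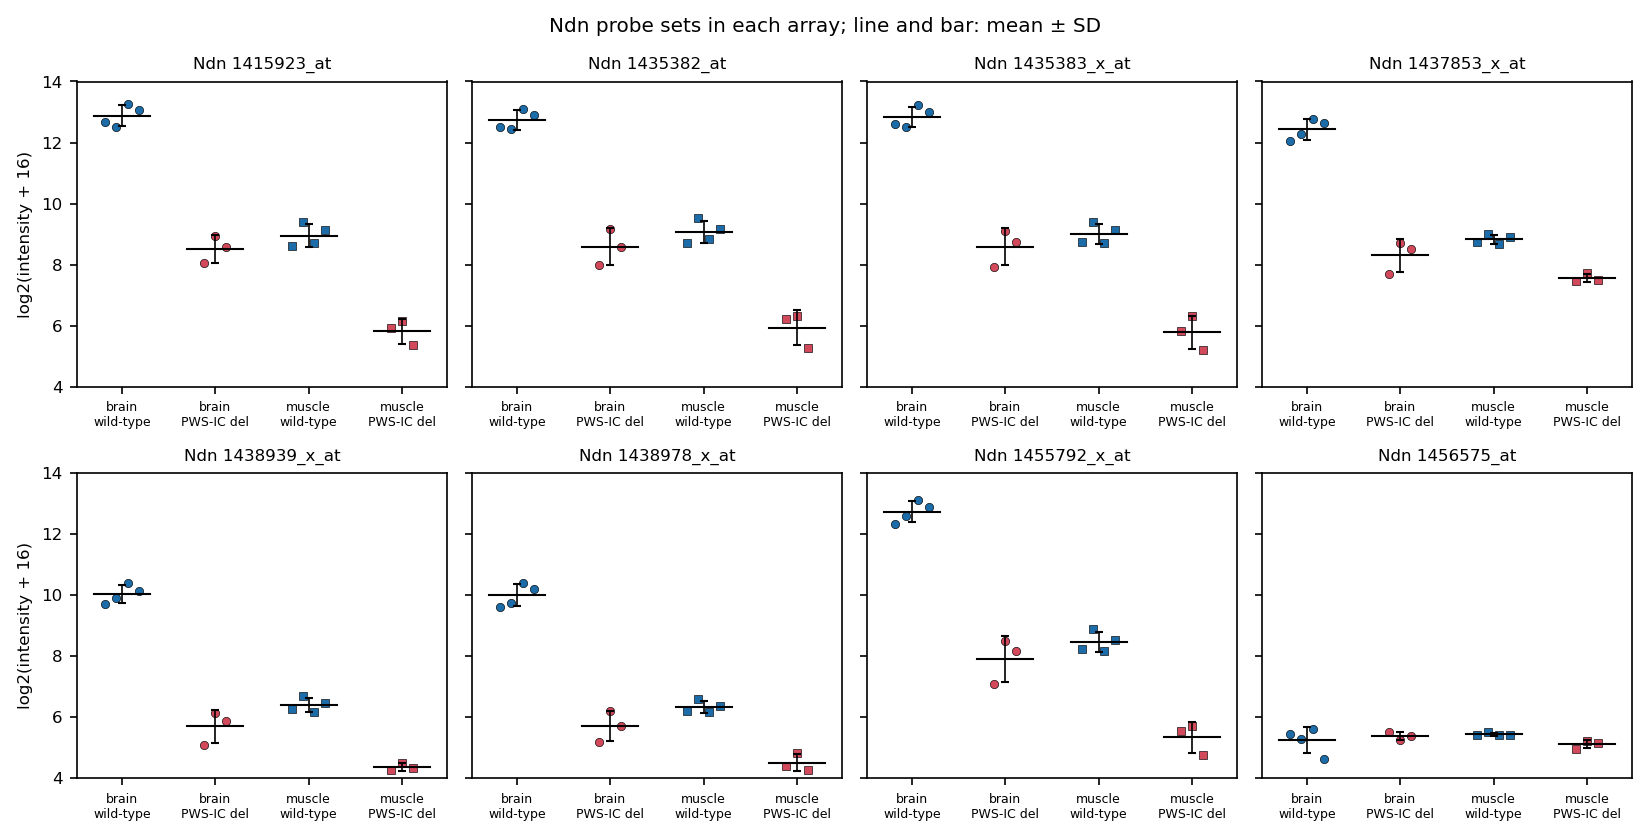
Each Ndn probe set has a panel that plots log2(intensity + 16) for every array in the 4 groups, with circles for brain, squares for muscle, and a line and bar for the mean ± SD. In 7 panels the PWS-IC del arrays lie below the wild-type arrays of the same tissue, and in the panel of 1456575_at all arrays lie between 4.64 and 5.62.

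The eighth Ndn probe set, 1456575_at, read 5.44, 5.28, 5.62 and 4.64 in wild-type brain and 5.51, 5.25 and 5.38 in PWS-IC del brain. Its mean lay under the 0.25 quantile of all probe sets in brain, 6.10, and its groups overlapped. Its difference was 0.13 ± 0.22 (SE, limma adjusted p = 0.813). With Magel2, described below, 7 of the 9 probe sets of the imprinted pair were called lower and 0 higher in brain, with a median difference of -4.25. Over all probe sets 0.0622% were called in brain, all of them lower, and the median difference was -0.01. The groups did not overlap for 8 of the 9 probe sets, all lower in the mutants, against 4.03% of all probe sets.

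Leaving out the brain arrays that stood apart or held muscle RNA did not end an Ndn call. Without wild-type brain 1 and 2 the 7 differences ran from -5.11 to -4.41, with a largest adjusted p of 0.00176. Without wild-type brain 1 and 3 they ran from -4.83 to -4.08, with a largest adjusted p of 0.0124. The Ndn difference was thus about as large without the 2 brain arrays that held muscle fibre RNA. With the replicate number as a block in the limma fit, 3 of the 7 calls remained, with a largest adjusted p of 0.0854. Of the 65 cell type markers, 4 lay apart between the genotypes in brain, all lower in the mutants, where 7.72% of all probe sets lay apart. They were Ckm and Myh4 of muscle fibres, the pituitary hormone Prl and the endothelial receptor Kdr, which read 7.31 to 7.44 against 7.47 to 8.03. Their part in the Ndn difference was not tested beyond the arrays left out.

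Ndn RNA was also lower in PWS-IC del muscle, where the wild-type level was itself lower than in brain. All 7 Ndn probe sets that were called in brain fell in muscle too, with differences of -3.22 to -1.27. With log2(intensity + 1) in place of log2(intensity + 16), 4 of these 7 calls remained, with a largest adjusted p of 0.0723. Probe set 1415923_at read 8.61, 9.38, 8.71 and 9.12 in wild-type muscle and 5.93, 6.17 and 5.36 in PWS-IC del muscle. A wide gap separated the groups. Means were 8.96 ± 0.36 (SD, n = 4) and 5.82 ± 0.42 (SD, n = 3), for a difference of -3.14 ± 0.23 (SE, limma adjusted p = 0.00207) and a mean intensity of 492 against 41.9.

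Probe sets 1435382_at, 1435383_x_at and 1455792_x_at behaved like it in muscle. The first read 8.71, 9.54, 8.85 and 9.16 in wild-type and 6.23, 6.31 and 5.28 in PWS-IC del muscle. The second read 8.75, 9.41, 8.72 and 9.13 against 5.82, 6.31 and 5.21, and the third 8.25, 8.89, 8.16 and 8.52 against 5.54, 5.71 and 4.78. Their mutant arrays kept 8.22% to 9.08% of the wild-type mean intensity for the first 2, and 7.66% for the third. Probe sets 1438939_x_at and 1438978_x_at read 6.27, 6.69, 6.17 and 6.46, and 6.21, 6.59, 6.17 and 6.35, in wild-type muscle. In PWS-IC del muscle they read 4.27, 4.51 and 4.33, and 4.42, 4.82 and 4.28, where a reading of 4.00 is the scale's lower end. Readings this near that end make their log2 differences, -2.03 and -1.82, too small. The percents of wild-type intensity below include these 2, and theirs rest on intensities of 3.30 to 12.2 in mutant muscle.

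One bright probe set gave another reading in muscle. Probe set 1437853_x_at read 8.74, 8.99, 8.69 and 8.92 in wild-type muscle and 7.47, 7.73 and 7.50 in PWS-IC del muscle. The groups were apart, but the mutant arrays kept 36.6%, 44.2% and 37.2% of the wild-type mean intensity. The other 6 called probe sets kept at most 18.8%, a value of 1438978_x_at near the scale's lower end. Its difference was -1.27 ± 0.11 (SE, limma adjusted p = 0.00572). In brain the same probe set kept 5.58%, near the others. Which transcript its remaining muscle signal came from was not tested.

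The dim probe set 1456575_at read 5.42, 5.53, 5.41 and 5.41 in wild-type muscle and 4.98, 5.24 and 5.14 in PWS-IC del muscle. Its groups did not overlap, but the difference of -0.32 ± 0.10 (SE) was not called (limma adjusted p = 0.333). Of the 9 Ndn and Magel2 probe sets, 7 were called lower and 0 higher in muscle, and their median difference was -2.03. Over all probe sets 0.0644% were called in muscle, 0.0555% lower and 0.00888% higher, with a median difference of -0.00429. The groups lay apart for 8 of the 9, against 6.06% of all probe sets that lay apart and lower.

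Within wild-type muscle the Ndn level was highest in the arrays with the most neuron RNA. Wild-type muscle 2 was highest for all 7 called probe sets and also had the highest neuron marker average, 7.56. Wild-type muscle 4, at 9.12 for 1415923_at, came next with an average of 6.69, and wild-type muscle 1 and 3 had averages of 5.41 and 5.95. The PWS-IC del muscles had neuron averages of 5.58, 5.80 and 6.35, inside the wild-type range. Of the 65 cell type markers, 10 lay apart between the genotypes in muscle, where 10.6% of all probe sets did. In the mutants 4 were higher (Aqp4, Kl, Avp and Penk) and 6 lower. Among the lower ones were the endothelial markers Vwf, at 7.51 to 7.85 in PWS-IC del against 8.09 to 8.43 in wild-type muscle, and Pecam1, at 7.90 to 8.49 against 8.51 to 8.77. The 4 endothelial markers averaged 8.25 to 8.76 against 8.73 to 9.11. The fast myosin gene Myh2 read 12.20 to 12.81 against 12.92 to 13.80, and Myh1 also lay apart and lower. The other fibre markers, Acta1, Ckm, Myh4, Mylpf and Tnnt3, overlapped between the genotypes. The 7 fibre markers, with Myh1 and Myh2 among them, averaged 13.62 to 13.77 against 13.79 to 13.92. This average thus does not show that muscle fibre RNA in general was lower in the mutants. The part of these cell types in the Ndn difference was not tested. Fat cell markers were also highest in wild-type muscle 2, at 11.04, with the other wild-type muscles at 9.49 to 9.82 and the PWS-IC del muscles at 9.91, 10.90 and 8.51. Without wild-type muscle 2 and 4 the 7 Ndn differences were -2.96 to -1.15 and 3 of the 7 were called, with adjusted p from 0.0129 to 0.116 on the 5 arrays left. The size of the Ndn difference in muscle thus moved by little without these arrays, and the number of calls fell. Mutant and wild-type muscle also lay apart without them, but this follows from the groups lying apart with all arrays and is no further test.

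The signal that remained for Ndn differed between the mutant mice in the same order for every called probe set in brain. PWS-IC del brain 1 kept 1.70% to 3.40% of the wild-type mean intensity, brain 3 kept 3.53% to 6.24%, and brain 2 kept 4.94% to 8.15%. Brain 2 was the highest and brain 1 the lowest mutant for 7 of 7 probe sets. In muscle, PWS-IC del muscle 2 was likewise the highest for 7 of 7, at 9.80% to 44.2%. PWS-IC del muscle 3 was the lowest for 5 and PWS-IC del muscle 1 for 2. The probe sets of a gene share the array and the RNA, so the 7 orders are not independent. Brain 2 and muscle 2 share a replica number, but the labels do not say whether they came from the same mouse. Fibroblast markers were also highest in PWS-IC del muscle 2, at 11.91 against 11.44 and 10.75 in the other mutants. Hypothalamus markers averaged 9.42, 8.56 and 7.93 in PWS-IC del brain 1, 2 and 3, an order unlike that of the remaining Ndn signal. Purkinje cell markers averaged 9.82 and 9.88 in PWS-IC del brain 1 and 3 and were highest in brain 2, with Pcp2 at 8.20, 16.76 and 8.26, and so had the order of the remaining Ndn signal. Of the 15 marker lists, 2 had that order in brain, the other being the muscle satellite cell list. In both, brain 1 and 3 were nearly level, at 6.49 and 6.50 in the satellite cell list. With 3 arrays few orders are possible, and whether lists share an order more often than by chance was not tested in either tissue. In muscle, 6 of the 15 lists, fibroblast and fat cell among them, were highest in PWS-IC del muscle 2 and lowest in 3. Without PWS-IC del brain 2 the Ndn differences in brain were -5.12 to -4.33, with a largest adjusted p of 0.00227. The part of these cell types in the remaining signal was not tested.

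**Figure D2:**
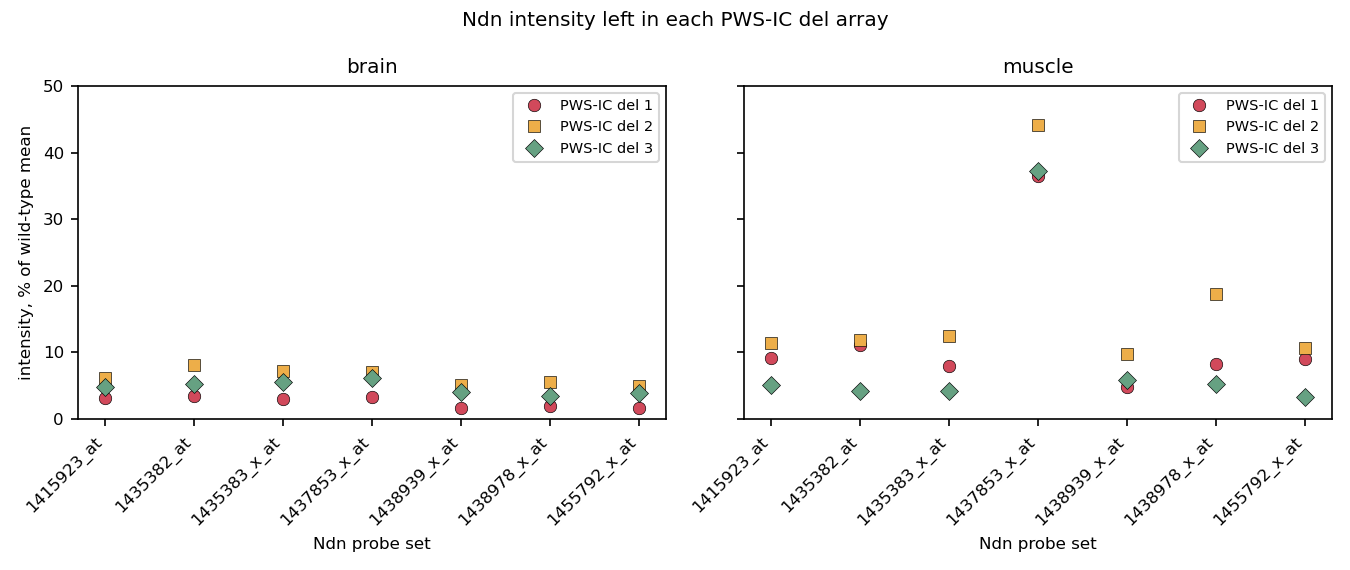
The points give, for each of the 7 Ndn probe sets called in both tissues, the intensity of each PWS-IC del array as a percent of the mean wild-type intensity of that tissue. In brain all points lie at or under 8.15%, with PWS-IC del 2 highest throughout, and in muscle 1437853_x_at alone lies between 36.6% and 44.2%.

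Magel2 was measured by the single probe set 1417217_at, which was high in 1 group only. It read 7.78, 7.51, 8.38 and 8.16 in wild-type brain and 6.17, 6.35 and 5.52 in PWS-IC del brain. In muscle it read 6.39, 6.53, 6.23 and 6.52 in wild-type and 6.39, 6.23 and 6.55 in PWS-IC del. Wild-type brain stood above the other 3 groups, which overlapped one another. Wild-type brain averaged 7.96 ± 0.39 (SD, n = 4), and PWS-IC del brain averaged 6.01 ± 0.44 (SD, n = 3), a mean intensity of 239 against 50.4.

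The brain difference of Magel2 was -1.95 ± 0.26 (SE, 95% interval -2.54 to -1.35), or 4.74-fold less intensity. It missed the threshold over all probe sets, with a limma adjusted p of 0.0786, while the groups did not overlap. With 1 probe set per gene in the fit the adjusted p was 0.0477, and without wild-type brain 1 and 2 the difference was -2.26 with an adjusted p of 0.021. Without wild-type brain 1 and 3 it was -1.82 with an adjusted p of 0.624. Over 21 other settings the adjusted p ran from 0.000462 to 0.624 and the difference from -2.26 to -1.39, below 0 in each. Wild-type brain 3, the array with the highest Magel2 reading, also had the highest hypothalamus marker average, 9.54, against 8.01 to 8.27 in the other wild-type brains. PWS-IC del brain 1 had nearly as high an average, 9.42, and read 6.17 for Magel2. The 2 averages rest on different genes. Avp (13.50) and Oxt (11.42) were high in PWS-IC del brain 1, and Pmch (11.67) and Pomc (11.31) in wild-type brain 3. Pituitary markers, Pomc among them, averaged 9.22 in wild-type brain 3 against 6.09 to 6.56 in the other wild-type brains. The part of the hypothalamus or pituitary share in the Magel2 levels was not tested.

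In muscle the Magel2 difference was -0.03 ± 0.12 (SE, limma adjusted p = 0.957). Its 95% interval ran from -0.29 to 0.24, so a difference as large as that in brain lay outside it. The muscle readings, at 6.23 to 6.55, overlapped those of PWS-IC del brain, where 2 of the 3 arrays lay lower still. A level at which the probe set reads no transcript is not known from these arrays, so how much Magel2 RNA the muscle held cannot be read from them.

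The test of the difference between tissues called 4 of the 15 probe sets, all with the larger fall or difference in brain. Over all probe sets 0.0644% were called in this test. For Magel2 the brain difference exceeded the muscle difference by -1.92 ± 0.30 (SE, limma adjusted p = 0.031). Ndn probe sets 1437853_x_at, 1438939_x_at and 1438978_x_at gave -2.86 ± 0.31, -2.32 ± 0.31 and -2.47 ± 0.33 (SE), with adjusted p of 0.00108, 0.00883 and 0.00815. The 4 brighter Ndn probe sets gave -1.72 to -1.03 with adjusted p of 0.538 to 0.902, and were not called. The called Ndn probe sets are thus the one with high remaining muscle signal and the pair near the scale's lower end in muscle. With log2(intensity + 1), where dim readings are compressed less, that pair gave -1.21 and -1.62 with adjusted p of 0.878 and 0.807, and 1437853_x_at was the 1 call left. The Magel2 call was lost in 16 of 28 other settings, without wild-type muscle 2 and 4 among them (-2.03, adjusted p = 0.136). Leaving out single arrays kept it in 3 of 14 cases, those without wild-type brain 1, wild-type brain 2 or PWS-IC del brain 2, with adjusted p of 0.0147 to 0.116 over the 14. For the 6 paralog probe sets the difference between tissues was -0.30 to 0.36, with adjusted p of 0.922 to 0.984.

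**Figure D3:**
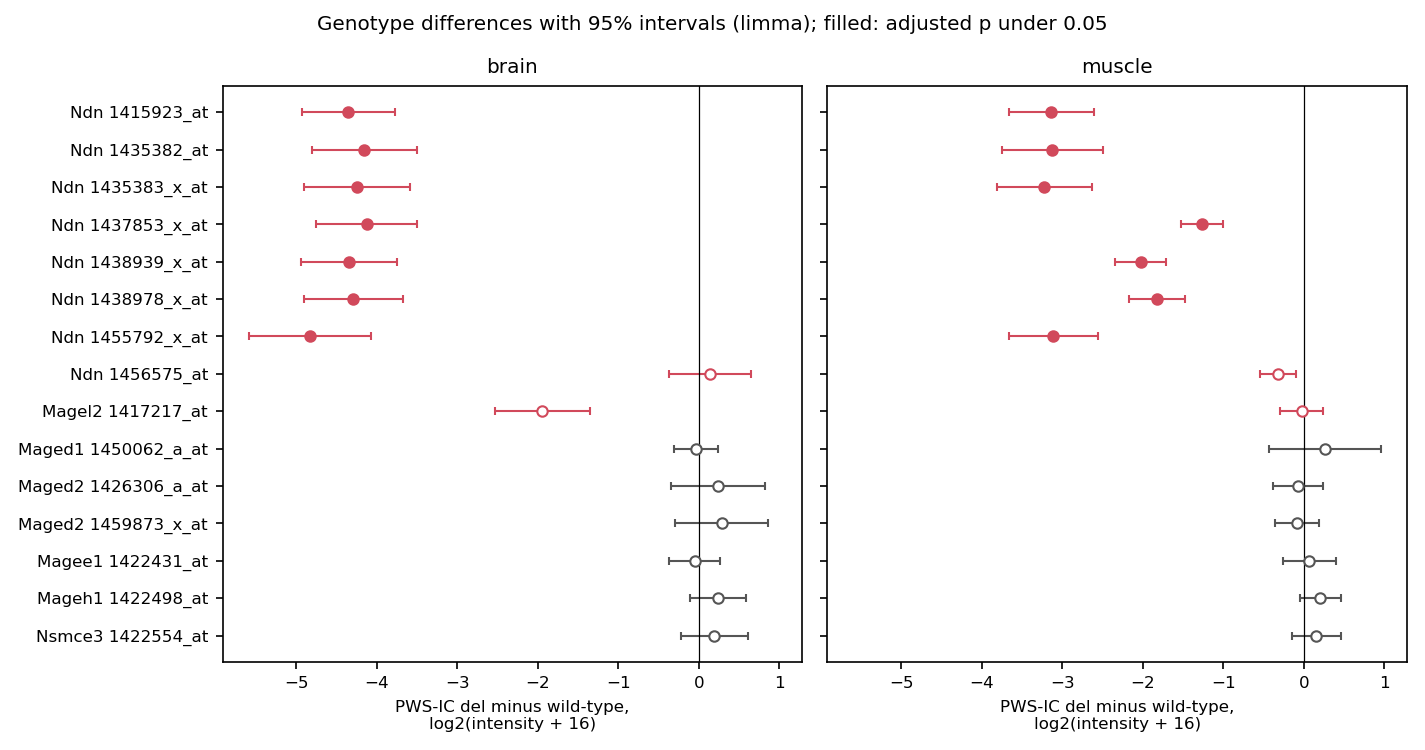
The difference between PWS-IC del and wild-type, on the log2(intensity + 16) scale, is plotted for each of the 15 probe sets in brain and in muscle with its 95% interval, and filled points mark calls at an adjusted p under 0.05. The 7 called Ndn probe sets lie far below 0 in both tissues, Magel2 lies at -1.95 in brain and -0.03 in muscle, and the paralogs lie between -0.08 and 0.28.

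None of the 6 paralog probe sets was called in either tissue, against 0.0622% of all probe sets in brain and 0.0644% in muscle, and their groups overlapped throughout, where 7.72% of all probe sets in brain and 10.6% in muscle had groups that did not. By limma, 4 of the 6 had a positive difference in brain and 4 in muscle, with medians of 0.21 and 0.11. Maged1 encodes a MAGE protein that binds the p75 neurotrophin receptor and Dlx and Msx homeodomain factors, as necdin does. It read 12.17, 12.10, 12.25 and 12.28 in wild-type brain and 12.32, 12.18 and 11.98 in PWS-IC del brain. Its brain difference of -0.04 had a 95% interval from -0.32 to 0.24 (adjusted p = 0.900), so a change of 1 log2 unit in either direction lay outside it.

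Maged1 spread more in muscle. It read 7.93, 8.99, 8.19 and 8.48 in wild-type and 8.89, 9.10 and 7.98 in PWS-IC del muscle. Wild-type muscle 2, the array with the most neuron RNA, was again the highest of its group. The difference of 0.26 had an interval from -0.43 to 0.95 (adjusted p = 0.799), and without wild-type muscle 2 and 4 it was 0.60 (adjusted p = 0.605). These muscle data set only a wide limit for Maged1.

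Maged2, a regulator of salt transport in the kidney, had 2 probe sets that ran together in brain. Probe set 1426306_a_at read 8.87, 8.80, 9.61 and 9.67 in wild-type brain and 9.64, 9.64 and 9.14 in PWS-IC del brain. Wild-type brain 1 and 2, the arrays that stood apart, were its lowest readings. Probe set 1459873_x_at showed the same split, from 6.48 and 6.79 in those arrays to 7.46 and 7.43 in wild-type brain 3 and 4. The brain differences were 0.24 (95% interval -0.35 to 0.82) and 0.28 (-0.30 to 0.86), with adjusted p of 0.720 and 0.677. Without wild-type brain 1 and 2 they were -0.17 and -0.13, so their sign rests on these arrays. In muscle 1426306_a_at read 7.61, 7.59, 7.48 and 7.61 in wild-type and 7.69, 7.65 and 7.16 in PWS-IC del. The muscle differences were -0.07 and -0.08, with adjusted p of 0.881 and 0.843.

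Magee1, which encodes a MAGE protein that binds dystrobrevin, read 11.70, 11.71, 11.83 and 11.80 in wild-type brain and 11.93, 11.76 and 11.43 in PWS-IC del brain. The difference of -0.05 had an interval from -0.37 to 0.26 (adjusted p = 0.883). In muscle it read 6.33, 6.92, 6.43 and 6.62 against 6.72, 6.70 and 6.51, a difference of 0.07 (-0.26 to 0.40, adjusted p = 0.898). Wild-type muscle 2 was the highest of its group here as well. Without wild-type muscle 2 and 4 the difference was 0.27 (limma adjusted p = 0.582).

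Mageh1 read 9.26, 9.46, 9.55 and 9.77 in wild-type brain and 9.94, 9.69 and 9.61 in PWS-IC del brain. Its difference of 0.24 (95% interval -0.11 to 0.58) had an adjusted p of 0.644, and without wild-type brain 1 and 2 it was 0.09. In muscle it read 6.68, 6.78, 6.57 and 6.43 against 6.93, 6.79 and 6.74, a difference of 0.21 (-0.04 to 0.46, adjusted p = 0.564). Most mutant readings lay in the upper part of the wild-type range or just above it in both tissues, and neither interval left out 0.

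Nsmce3 encodes a subunit of the SMC5/6 complex, which acts in DNA repair, and is the paralog that shares chromosome 7 with the imprinted pair. It read 8.93, 9.24, 9.30 and 9.60 in wild-type brain and 9.64, 9.54 and 9.20 in PWS-IC del brain. The difference was 0.19 (-0.22 to 0.60, adjusted p = 0.684), and without wild-type brain 1 and 2 it was 0.01. In muscle it read 7.80, 8.06, 8.07 and 7.84 against 8.33, 8.12 and 7.84, a difference of 0.15 (-0.15 to 0.46, adjusted p = 0.729). A change of the size of Ndn lay outside the interval of every paralog probe set in both tissues.

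**Figure D4:**
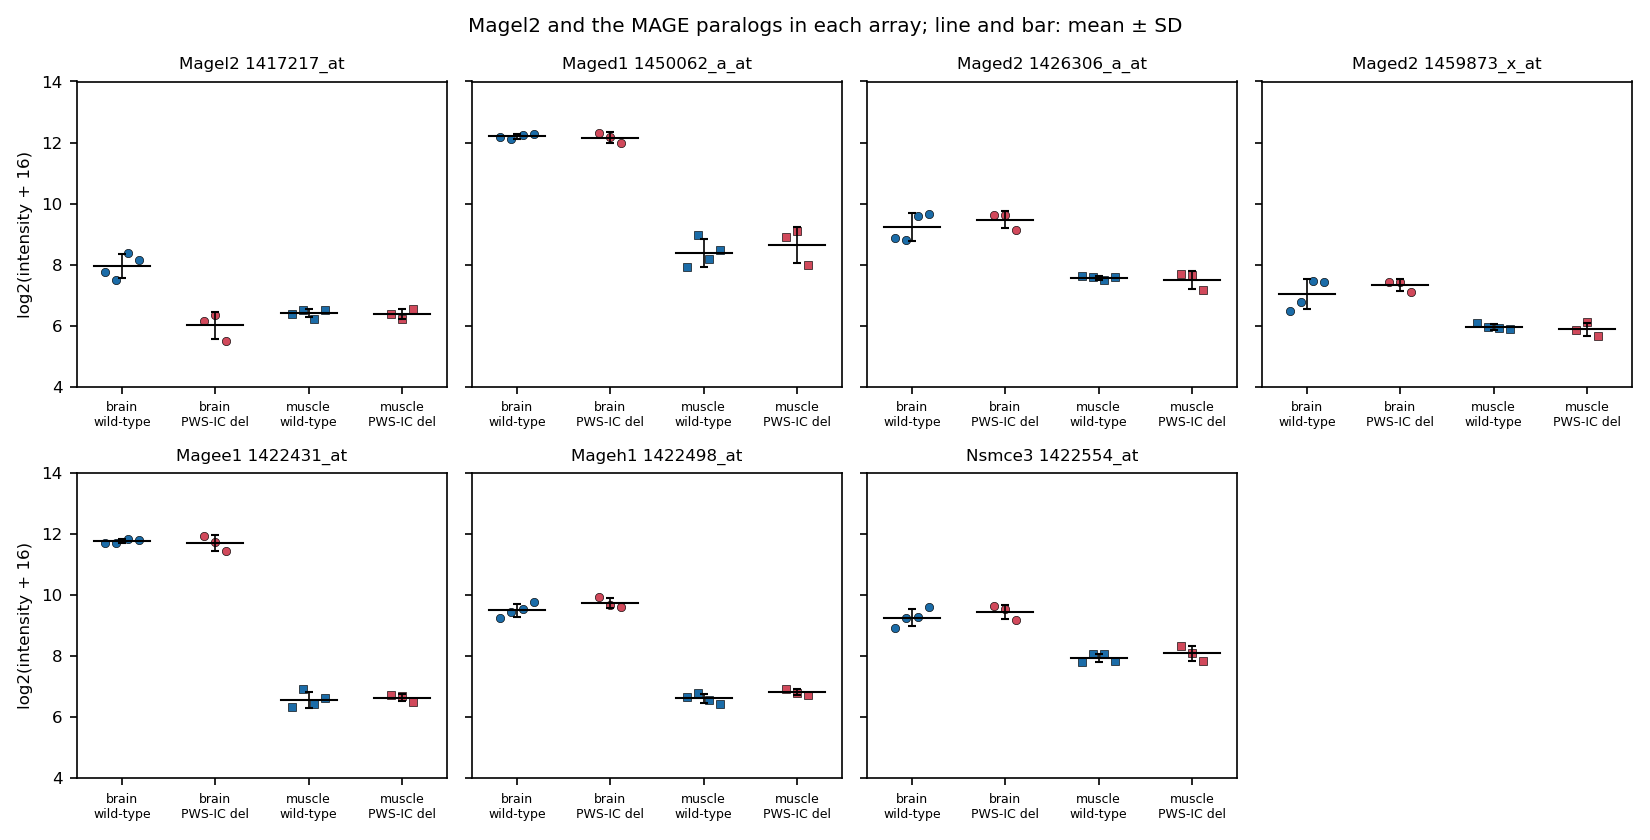
Each panel plots log2(intensity + 16) for every array of the 4 groups for Magel2 or a paralog probe set, with a line and bar for the mean ± SD. Only for Magel2 in brain are the wild-type and PWS-IC del arrays apart, and all the paralogs read higher in brain than in muscle in both genotypes.

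Across tissues, 14 of the 15 probe sets were higher in wild-type brain than in wild-type muscle, where 54.8% of all probe sets were called higher and 15.9% lower, with a median difference of 0.43. Differences here are wild-type brain minus wild-type muscle, by limma. Magee1 had the widest gap, 5.18 ± 0.14 (SE, adjusted p = 3.16e-13), a 42.8-fold intensity. The 7 Ndn probe sets called for genotype gave 3.60 to 4.28, or 12.8-fold to 20.4-fold, with a largest adjusted p of 2.36e-08. Maged1 gave 3.81 ± 0.24 (SE, adjusted p = 2.01e-09) and Mageh1 2.89 (adjusted p = 3.02e-11). Magel2 gave 1.54 ± 0.20 (SE, adjusted p = 6.36e-06), Nsmce3 1.32 ± 0.15 (SE, adjusted p = 2.14e-06), and the 2 Maged2 probe sets 1.66 and 1.08. Magel2 gave 1.85 without wild-type brain 1 and 2, and 1.42 without wild-type brain 1 and 3. Without wild-type muscle 2 and 4 it gave 1.64. In these 3 fits the 7 Ndn probe sets stayed called. The normalization between tissues is not known, and after quantile normalization or centring on the array median the median over all probe sets moved to -0.11 or -0.24. Under both, the 7 bright Ndn probe sets and every other gene kept a probe set called higher in brain, while Maged2 1459873_x_at (0.48 and 0.40) lost its call and the dim Ndn 1456575_at (-0.60 and -0.87) was called lower.

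The order of the 4 groups differed between the imprinted pair and the paralogs. All 7 bright Ndn probe sets ran from wild-type brain through wild-type muscle and PWS-IC del brain to PWS-IC del muscle. Wild-type brain lay apart from wild-type muscle in all 7, but wild-type muscle and PWS-IC del brain overlapped in 6 of them. Wild-type muscle and PWS-IC del brain were not tested against each other. PWS-IC del brain and PWS-IC del muscle lay apart in 6 and overlapped for 1437853_x_at. For Magel2 only wild-type brain lay apart. For all 6 paralog probe sets both brain groups lay above both muscle groups and the genotypes overlapped within each tissue.

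The neighbours of Ndn and Magel2 are a list of genes in and around the Prader-Willi domain. They gave 3 lower calls of 14 genes measured in brain and 1 of 14 in muscle. Over all probe sets 0.0622% were called in brain and 0.0644% in muscle. Snhg14, the long noncoding host transcript of the domain, fell in brain (-3.63, limma adjusted p = 0.00036) and in muscle (-2.20, adjusted p = 0.000123). Snrpn, which encodes a splicing protein, fell in brain (-4.87, adjusted p = 0.000439) and had a muscle difference of -0.39 (adjusted p = 0.405). Mkrn3, a ubiquitin ligase gene next to Magel2, fell in brain (-1.54, adjusted p = 0.00202). Peg12 had a difference of -0.76 in muscle (adjusted p = 0.14), with a mutant mean of 4.00, at the scale's lower end. Ube3a had a difference of 0.76 in brain (adjusted p = 0.644) and Herc2 of 0.43 in muscle (adjusted p = 0.207). Ipw gave -0.09 in brain (adjusted p = 0.832) and 0.49 in muscle (adjusted p = 0.6).

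No gene of the other 4 lists was called in either tissue by limma, where 2878 probe sets in brain and 4657 in muscle had an unadjusted p under 0.05. Of 39 further MAGE family names, 8 had a probe set, with median differences of -0.12 in brain and -0.15 in muscle. The smallest p belonged to Magea5 in brain (-0.44, adjusted p = 0.644) and to Magea4 in muscle (-0.39, adjusted p = 0.366). Trophinin (Tro), a MAGE relative on the list, had differences of -0.09 in brain and -0.22 in muscle and was higher in wild-type brain than muscle by 5.14 (adjusted p = 3.44e-13). Magef1, another, gave 0.26 in brain (adjusted p = 0.644).

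The 8 SMC5/6 complex genes, partners of Nsmce3, had positive differences in 7 of 8 cases in each tissue, with medians of 0.16 in brain and 0.10 in muscle. Nsmce1, which forms the ligase unit with Nsmce3, gave 0.28 in brain (adjusted p = 0.644) and 0.28 in muscle (adjusted p = 0.409). Nsmce4a gave 0.28 in brain and 0.12 in muscle. Eid3 gave -0.41 in muscle (adjusted p = 0.392). None of these passed the test. The Nsmce3 differences of 0.19 and 0.15 were positive too, but without wild-type brain 1 and 2 the one in brain was 0.01. With 1 probe set per gene, the median difference over all genes was also positive, at 0.03 in brain and 0.00623 in muscle. Whether the genes of this list moved together was not tested.

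The 21 ubiquitin ligase and endosome genes include the partners of Magel2. Their median differences were 0.10 in brain, with 17 of 21 positive, and 0.01 in muscle, with 12 positive. Trim27, the ligase that Magel2 binds, gave 0.19 in brain (adjusted p = 0.644) and -0.10 in muscle (adjusted p = 0.795). Usp7, the deubiquitinase of that complex, gave -0.04 and -0.09, and Vps35, a retromer subunit, gave 0.15 and 0.01. The WASH complex genes Washc3 in brain (0.35, adjusted p = 0.644) and Washc4 in muscle (-0.26, adjusted p = 0.502) had the smallest p of the list.

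The 21 measured binding partners of necdin, of 23 named, had median differences of 0.01 in brain and -0.01 in muscle. E2f1, a cell cycle activator that necdin binds, gave -0.14 in brain and -0.04 in muscle. Ngfr, the p75 neurotrophin receptor, gave 0.01 and -0.12. The smallest p belonged to the deacetylase Sirt1 in brain (0.26, adjusted p = 0.644) and to Eid1 in muscle (-0.32, adjusted p = 0.475). Fez1, an axonal transport adaptor on this list, was higher in wild-type brain than in wild-type muscle by 5.28 (adjusted p = 3.44e-13).

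**Figure D5:**
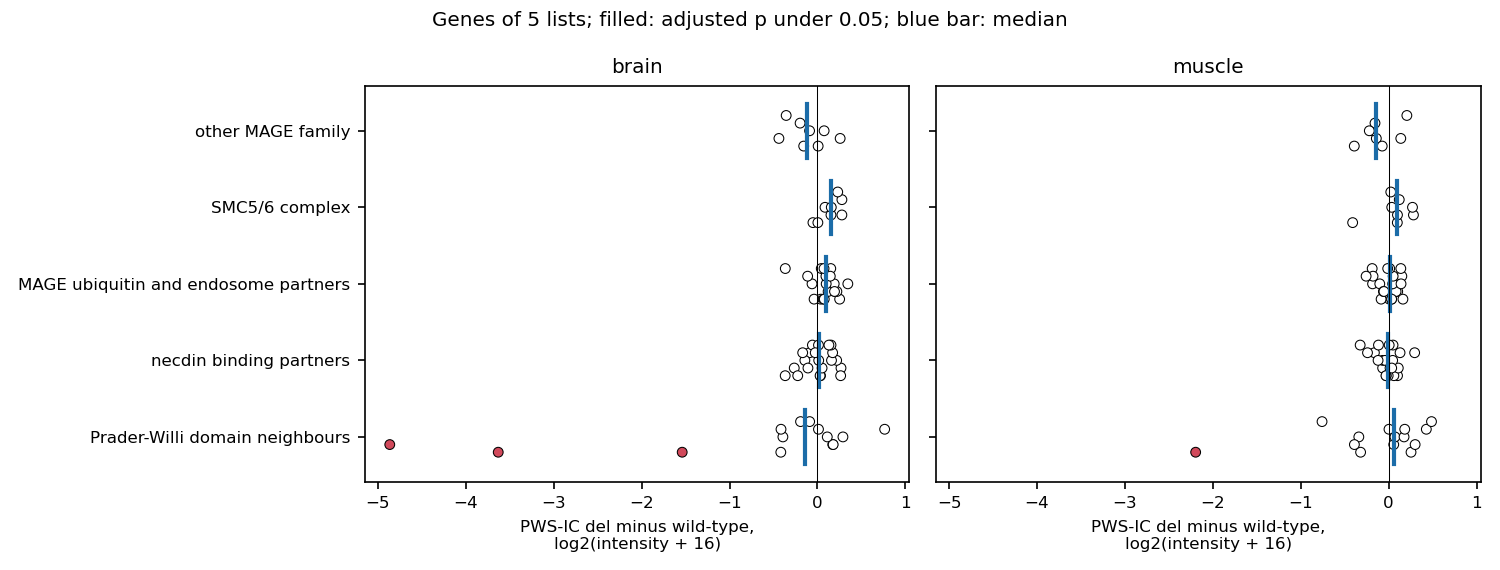
Each point is the PWS-IC del minus wild-type difference, on the log2(intensity + 16) scale, of a gene of the 5 lists in brain or muscle, and filled points mark calls at an adjusted p under 0.05. Called points occur only among the Prader-Willi domain neighbours, 3 in brain and 1 in muscle.

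The genes whose pattern was most like that of Ndn probe set 1437853_x_at were mostly on its own chromosome. This is the probe set that kept 36.6% to 44.2% of its signal in mutant muscle, so the likeness stands for it and not for every Ndn probe set. After the mean of each tissue was taken away, the Ndn probe set with the highest mean, 1437853_x_at, correlated over the 14 arrays with B230209E15Rik (r = 0.956), Gm5802 (0.944), Snhg14 (0.942), A230006K03Rik (0.933) and Snrpn (0.924), among 13645 genes. All but Gm5802 are on chromosome 7. For Magel2 the closest were Snrpn (0.927), A230006K03Rik (0.914), Gkn2 (0.885), B230209E15Rik (0.884) and Car3 (0.861). These points share arrays and the genotype difference, and the lists are a description.

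For the paralogs the correlation was taken over the 14 arrays with the tissue difference left in, which sets most of its size. Maged1 was nearest to Pgrmc1 (r = 0.998), Magee1 to Nsg1 (0.999), Mageh1 to Atpif1 (0.998), Maged2 to Tmem29 (0.995) and Nsmce3 to Ctu1 (0.993). With 2 tissues so far apart, many genes reach such values.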

How the data were processed

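The 14 arrays, all Affymetrix Mouse Genome 430 2.0, were analysed from the deposited linear intensity values, which came from PLIER and the Affymetrix Expression Console per the submitters' processing notes. Its background correction and normalization settings: not given in the sources used here, so comparisons between tissues depend on unknown scaling. Titles gave every group. Of 45101 probe sets, 64 controls were left out, and no value was missing or filtered. Names came from GEO's (possibly old) platform annotation: 34945 had 1 symbol, 932 several and 9160 were not listed. Brain and muscle had separate lmFit and eBayes fits (limma 3.58.1, R 4.3.3) on log2(intensity + 16), 2-sided, Benjamini-Hochberg over 45037 probe sets; the tissue contrasts used all 14 arrays. Scripts were tested on simulated data. Genes named were all members, list genes past the threshold or with the smallest p (up to 4 per list and tissue, at the probe set with the highest mean), and the genes most like a member. Trim27, Usp7, Vps35, E2f1, Ngfr and Fez1 fall outside that rule and were chosen after their values were seen. Members and lists were chosen with earlier results of these data known. Alternatives covered pseudocounts, scaling, filtering, probe set choice, spread models, the replicate block and left-out arrays. The number of arrays limits precision, and p-values measure the spread between these samples, which the labels call biological replicas. Same-numbered samples did not all deviate together, with correlations of -0.31 to 0.30. Such values cannot show whether they shared a mouse, and the main tests took the arrays as independent.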

Additional observations from a re-analysis of the deposited data

Results flagged for a closer look

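Ndn probe set 1456575_at read 5.53 in wild-type muscle replicate 2, apart from the other 3 arrays of its group, whose readings lay at 5.41 to 5.42. The gap was 0.913 of the group's range, above Dixon's 95% critical value for 4 samples. Among the 30 groups of 4 examined, 1 stood out in this way, and chance gives about 1 in 20 groups.

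For 4 probe sets the genotype difference itself differed between brain and muscle by the interaction test. The brain difference minus the muscle difference was -2.86 for Ndn 1437853_x_at, -2.32 for Ndn 1438939_x_at, -2.47 for Ndn 1438978_x_at and -1.92 for Magel2 1417217_at.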

How the results depend on the processing

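No result turned its direction past the threshold under any alternative run. The paralog probe sets gave 0 calls in brain and in muscle under every alternative. With 1 probe set per gene, or with the mean of a gene's probe sets, the calls for Ndn and Magel2 were 2 or 1 of 2 genes in brain and 1 and 1 in muscle, those for the difference between tissues 2 and 1 of 7, and those between wild-type tissues 7 and 7 of 7; fewer features enter these fits. With log2(intensity + 1) the muscle calls were 4 of 9 and the calls for the difference between tissues 1 of 15. Without wild-type muscle 2 and 4, an alternative chosen after seeing the data, as were those without wild-type brain 1 and 2 or 1 and 3, the muscle calls were 3 of 9. With the replicate block, brain calls were 3 of 9 (Ndn differences -4.78 to -4.06, largest adjusted p 0.0854), and over all probe sets 11 in place of 28. Muscle calls were 6 of 9 with the block (largest adjusted p of the bright Ndn probe sets 0.0884) and 6 of 9 with all 14 arrays in 1 fit (0.0557). Same-numbered wild-type and PWS-IC del samples correlated at -0.31 to 0.01 in brain and 0.00 to 0.30 in muscle, and PWS-IC del samples correlated best with their own number in 0 of 3 and 1 of 3 cases. Brain and muscle samples of 1 number and genotype correlated at -0.00272 to 0.168, and a muscle sample correlated best with its own number in 2 of 3 PWS-IC del and 2 of 4 wild-type cases, so not every pair was over 0.1 in any of these sets. Uncalled differences of member probe sets changed sign in 10 of 298 refits in brain, 12 of 281 in muscle, 18 of 403 for the difference between tissues and 1 of 403 between wild-type tissues. Leaving out each array in turn gave 7 to 7 calls of Ndn and Magel2 in brain and in muscle, 0 to 0 of paralogs, 3 to 4 for the difference between tissues and 14 to 14 between wild-type tissues. The cause of these moves was not tested. Probe sets near the scale's lower end give log2 differences that are too small.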
